A study of Wolfiporia cocos with 12 samples.

Results

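The transcript state of the brown-rot fungus Wolfiporia cocos on Avicel was set against its state on every other medium of the study. Of 12 libraries, 3 came from Avicel cultures, and the other 9 came from glucose, aspen and pine cultures, 3 of each. All were strain MD-104, grown as separate shaken cultures of 250 ml basal salts that had received mycelium scraped from agar, and all were harvested on day 5. The Avicel cultures held a microcrystalline cellulose as their carbon source. The aspen cultures held milled wood of Populus grandidentata and the pine cultures milled wood of Pinus contorta, both at 0.5% w/v, while the glucose cultures held the free sugar. The Avicel libraries were compared with the mean of the glucose, aspen and pine group means, and with each of those media by itself. Levels are RPKM, reads per kilobase of gene model per 1e6 reads, and differences are Avicel minus the other medium on the scale of log2(RPKM + 1). Of 12746 gene models, 10184 reached a mean of 1 RPKM in at least 1 medium and were tested. A gene was called when its Benjamini-Hochberg adjusted p from limma was under 0.05 and its fold was at least 2.

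Brown-rot fungi open wood by an oxidative chemistry that involves iron and hydrogen peroxide, and they then break cellulose and hemicellulose down with secreted glycoside hydrolases. Avicel offers the cellulose without lignin and with little hemicellulose, so the fungus must still free glucose from a crystalline polymer before it can take the sugar up. Wolfiporia cocos, like other brown-rot fungi, relies mainly on endoglucanases of families such as GH5 and GH12 together with beta-glucosidases, and family GH10 holds xylanases.

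The Avicel libraries held 17.8, 15.3 and 9.8 units of 1e6 reads, as estimated from the spacing of low values, and the other 9 held 11.2 to 22.5. The level that 3 reads give over 1 kb lay between 0.13 and 0.31 RPKM in the 12 libraries, a floor that covers counting error only. Glucose and Avicel were run on lane 1 and both woods on lane 2, so lane and wood against defined medium cannot be told apart, while Avicel against glucose lies within a single lane. The median difference over all tested genes was -0.09 against the mean of the other media, -0.18 against glucose, -0.05 against aspen and -0.04 against pine. On the first principal component, with 56.4% of the variance, the Avicel libraries stood at -18.51, -28.78 and -35.68, between glucose and wood. On the second, with 11.2%, Avicel culture 3 stood at 41.13 and no other library above 13.03.

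Few genes were higher on Avicel than on every other medium. Called higher against each of the 3 other media were 8 genes (0.0786% of those tested), and called lower against each was 1 (0.00982%). The 8 were an isocitrate lyase family protein, an aldehyde dehydrogenase, a mitochondrial carrier, a cytochrome P450 and 4 models without an InterPro label. The 1 lower gene bears the label isopenicillin N synthase. In all 9 genes no Avicel library overlapped any of the other 9 libraries, an outcome that their choice by these calls favours. Over all tested genes, every Avicel library lay above the other 9 in 0.619% and below them in 4.47%. The backgrounds of the 3 single comparisons were unequal: 98 genes were called higher (0.962%) and 72 lower (0.707%) against glucose, 379 higher (3.72%) and 357 lower (3.51%) against aspen, and 455 higher (4.47%) and 464 lower (4.56%) against pine.

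Model 23619 (scaffold 3, positions 250219 to 252261, plus strand) has the label of isocitrate lyase, the enzyme that splits isocitrate and opens the glyoxylate bypass, and of the related phosphorylmutases. Its level was 456, 444 and 416 RPKM in the Avicel cultures, against 271, 233 and 155 in glucose, 169, 169.8 and 207 in aspen and 184, 159 and 227 in pine. The lowest Avicel culture lay above the highest of the other 9, and the Avicel cultures were close together at 439 ± 20.4 RPKM (SD, n = 3). The difference was 1.17 (SE 0.16, limma adjusted p = 0.00176) against the mean of the others, and 1.03 against glucose (adjusted p = 0.0193), 1.27 against aspen and 1.22 against pine. In bulk RNA of a whole culture, fewer hyphae that express a gene and less RNA in each hypha cannot be told apart. Model 126344 (scaffold 12, positions 1791145 to 1792986, minus strand) is an aldehyde dehydrogenase, of a family that oxidises aldehydes to acids. It stood at 23.2, 18.4 and 15.1 RPKM on Avicel, against 8.14, 5.47 and 5.21 on glucose, 7.73, 7.91 and 6.998 on aspen and 4.46, 5.25 and 4.55 on pine. All 3 Avicel cultures were above all others, at a difference of 1.48 (SE 0.15, limma adjusted p = 0.000292). Model 28083 (scaffold 12, positions 1362717 to 1364268, plus strand) belongs to the mitochondrial carriers, which move metabolites across the inner mitochondrial membrane. It stood at 87.0, 77.6 and 59.0 RPKM on Avicel, against 37.3, 23.4 and 20.1 on glucose, 13.2, 12.4 and 19.1 on aspen and 17.7, 9.14 and 19.2 on pine. The Avicel cultures again did not overlap the rest, with a difference of 1.99 (SE 0.24, limma adjusted p = 0.000661). An unlabelled model on the same strand, 156409, overlaps its start and was at 0.535 to 2.85 RPKM in the 12 libraries. Of 29 mitochondrial carriers 2 were called higher against the mean and none lower (median 0.04), and of 20 aldehyde dehydrogenases 1 and none (median 0.03), both lists added after the values were seen.

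The cytochrome P450 104807 (scaffold 8, positions 946455 to 948382, minus strand) is of E-class group I, a family of heme monooxygenases. Its levels were 85.3, 86.8 and 77.2 RPKM on Avicel, against 31.0, 26.9 and 32.3 on glucose, 26.04, 48.9 and 29.04 on aspen and 15.4, 26.5 and 17.7 on pine. The Avicel cultures lay within 83.1 ± 5.16 RPKM (SD, n = 3) and none overlapped another library. The difference was 1.59 (SE 0.19, limma adjusted p = 0.000637) against the mean and at least 1.29 against each medium. The next call in the same direction on this scaffold was the unlabelled 144888, at 313, 217 and 300.2 RPKM on Avicel and 54.2 to 206 elsewhere, with a difference of 1.43 (limma adjusted p = 0.0141; 0.0796 without Avicel culture 3).

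The most abundant of the 8 was the unlabelled 18691 (scaffold 8, positions 219906 to 221672, plus strand). It stood at 1978, 950.0 and 2016 RPKM in the Avicel cultures, against 229.9, 423 and 72.9 in glucose, 167, 49.5 and 78.4 in aspen and 24.3, 15.1 and 28.1 in pine. The media followed the order Avicel, glucose, aspen and pine in their means, although single glucose and aspen cultures overlapped. The differences were 3.01 against glucose (SE 0.59, limma adjusted p = 0.0204), 4.15 against aspen and 6.10 against pine. The unlabelled models 154083 and 154085, within 20 kb of it, were called higher against the mean as well, by 1.26 and 1.27 (limma adjusted p = 0.0196 and 0.0031), and the first lost its call without Avicel culture 2 or 3 (highest adjusted p = 0.105). The other 3 unlabelled genes were 20588 at 21.5 to 28.03 RPKM on Avicel and 0.171 to 6.90 elsewhere, 40624 at 121 to 182 and 22.9 to 69.0, and 137803 at 163 to 229 and 43.2 to 114.7. Their differences against the mean were 3.22, 1.75 and 1.42 (limma adjusted p = 0.000541, 0.000266 and 0.0033).

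The gene lowest on Avicel was 141204 (scaffold 24, positions 283162 to 285125, minus strand). Its label is that of isopenicillin N synthase, a family of iron-dependent oxidases that is named after an enzyme of penicillin synthesis and that holds other oxidases too. Its level was 10.8, 25.2 and 6.44 RPKM on Avicel, against 46.9, 79.3 and 145 on glucose, 45.9, 35.1 and 77.3 on aspen and 64.5, 99.5 and 133 on pine. The highest Avicel culture was below the lowest of the others, and the difference was -2.48 (SE 0.41, limma adjusted p = 0.00407). Beside it on the same strand, at positions 285687 to 287595, lies 141205, a 2OG-Fe(II) oxygenase, of a family that uses 2-oxoglutarate and iron to oxidise its substrates. That gene stood at 16.2, 20.8 and 5.87 RPKM on Avicel, against 25.8 to 87.9 on glucose, 47.5 to 129 on aspen and 99.1 to 188 on pine. It too had no overlap and a difference of -2.52 from the mean (SE 0.42, limma adjusted p = 0.00477), but against glucose its adjusted p was 0.0775. In both genes Avicel culture 3 was the lowest.

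**Figure D1:**
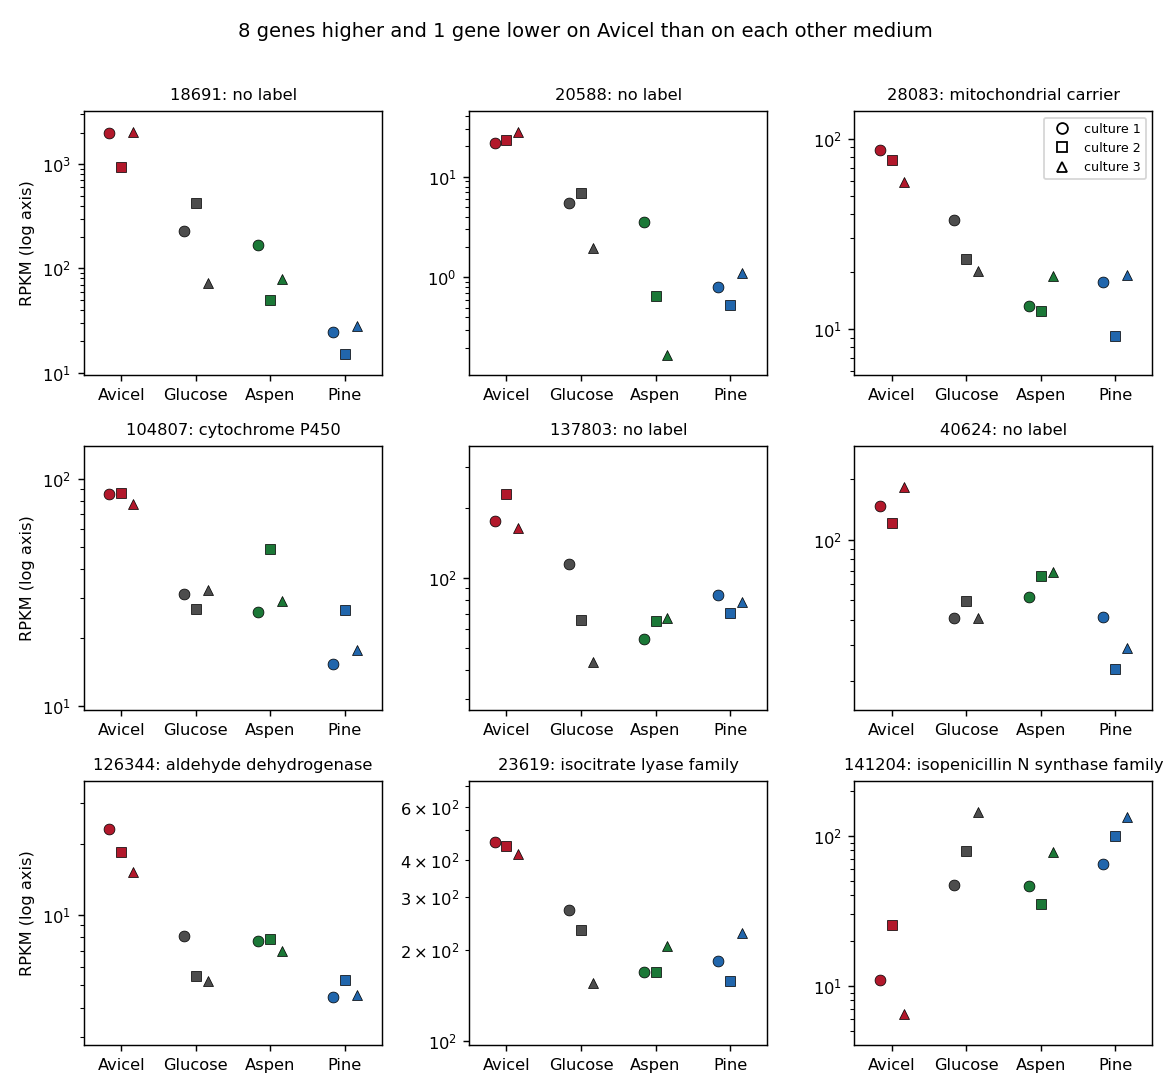
RPKM (log axis) of the 8 genes called higher and the 1 gene called lower on Avicel than on each other medium, 1 panel a gene, with a point for each of the 3 cultures of Avicel, glucose, aspen and pine. In every panel the 3 Avicel points clear the other 9, above them in the first 8 panels and below them in the panel of 141204. The genes were chosen by calls on these same libraries, which favours such a separation.

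How firmly each of the 9 held depended on the libraries kept. Genes 104807, 126344 and 40624 kept all their calls when any 1 of the 12 libraries was left out, and 137803 lost its place without glucose culture 2 only. Genes 18691 and 20588 lost theirs without Avicel or glucose culture 1 or 3, 28083 without Avicel culture 1 or 2 or glucose culture 2 or 3, and 23619 without Avicel culture 1 or glucose culture 2 or 3. The lowest gene, 141204, lost its place in 5 of the 12 cases, those without Avicel culture 3, glucose culture 2 or 3, or aspen culture 1 or 3. All 9 kept their call against the mean of the other media in every one of these cases, with a highest adjusted p of 0.0317. In the authors' deposited table the p-values of these 9 genes for Avicel against glucose ran from 0.000303 to 0.0407. The genes were picked by calls on these same cultures, so these p-values, the kept calls and the lack of overlap are not independent support. The number of genes highest on Avicel was 36 without Avicel culture 1, 13 without Avicel culture 2 and 5 without glucose culture 2. Without the 3 shallowest libraries, Avicel 3, aspen 3 and pine 2, it was 6, of which 4 were among the 8, and no gene was lowest.

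A wider set is given by order alone. All 3 Avicel libraries lay above the other 9 in 63 genes (0.619%) and below them in 455 (4.47%). After the libraries were centred on their medians these counts were 126 and 161, so the excess of low genes depended on the scaling of the libraries. With a fold of at least 2 against each medium the counts were 20 and 2. Of the 20, 12 were not among the 8 called, and each of these 12 missed the adjusted p against glucose. Among them was the cytochrome b5 28650, a small electron carrier, at 251, 253 and 197 RPKM on Avicel, against 152, 86.0 and 71 on glucose, 25.2, 7.24 and 29.9 on aspen and 23.1, 1.58 and 31.1 on pine. Its difference was 3.03 (limma adjusted p = 0.0137; 0.0579 without Avicel culture 3) from the mean and 1.24 from glucose (adjusted p = 0.353). The histidine acid phosphatase 69091, of a family with secreted phytases, stood at 228, 215 and 249 RPKM on Avicel, against 94.3 to 125 on glucose, 41.0 to 83.5 on aspen and 40.4 to 76.6 on pine (difference 1.58, limma adjusted p = 0.00239). The globin 24769, of the heme proteins that bind oxygen or nitric oxide, stood at 699, 269.6 and 440.5 RPKM on Avicel and at 55.2 to 225 elsewhere. Its difference was 1.8 (limma adjusted p = 0.0205), lost without Avicel culture 1 or 3 (highest adjusted p = 0.091).

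Against the mean of the other 3 media, 211 genes were called higher on Avicel (2.07%) and 157 lower (1.54%). At a fold of at least 4 there were 41 higher and 24 lower. Higher genes thus made up 57.3% of the calls, and this share moved with the treatment of the values. It was 68.3% after median centring (265 and 123), 30.1% without a fold threshold (361 and 839), 45.8% without Avicel culture 2 (142 and 168) and 46.9% without Avicel culture 3 (98 and 111). Without Avicel culture 3 the number of higher genes was thus under the 211 by more than 1.5 times, and without the 3 shallowest libraries the counts were 77 and 95 (44.8% higher). A call against the mean is not a call of the highest level. Of the 211, 148 had their highest group mean on Avicel and 63 on glucose, and of the 157, 75 had their lowest on Avicel and 82 on glucose. The opposite extreme lay mostly on pine, which was lowest in 127 of the 211 and highest in 118 of the 157.

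Several of the largest labelled changes were of this second kind, shared with glucose. The haloacid dehalogenase or epoxide hydrolase 134844, of a family that cleaves carbon-halogen or other bonds, stood at 73.9, 46.6 and 96.8 RPKM on Avicel, against 85.2, 54.9 and 40.5 on glucose, 4.26, 1.67 and 2.36 on aspen and 1.53, 0.513 and 2.89 on pine. Avicel and glucose overlapped (difference 0.27, limma adjusted p = 0.701), neither overlapped wood, and the difference from the mean was 3.13 (SE 0.32, limma adjusted p = 0.000292). Among the lower genes, the multicopper oxidase 157228 stood at 2.27, 1.38 and 2.10 RPKM on Avicel, against 1.99, 2.29 and 2.26 on glucose, 37.2, 22.3 and 81.0 on aspen and 66.0, 34.9 and 212 on pine. It overlapped with glucose and lay -2.93 from the mean (SE 0.45, limma adjusted p = 0.00295). The major facilitator transporter 166774 stood at 3.09, 4.56 and 3.49 RPKM on Avicel, against 4.30 to 5.86 on glucose, 58.3 to 93.4 on aspen and 41.8 to 74.4 on pine (difference -2.63, limma adjusted p = 5.74e-05). A different order was seen in the cerato-platanin 72733, of a family of small secreted proteins that loosen cellulose in other fungi. It stood at 92.6, 45.5 and 97.4 RPKM on Avicel, against 5.24, 4.69 and 11.7 on glucose, 3320, 4638 and 5091 on aspen and 3146, 3863 and 5020 on pine. Avicel overlapped neither glucose nor wood, and this was the 1 call among 7 cerato-platanins (median -0.26, and -0.07 without Avicel culture 3). It was above glucose by 3.30 (SE 0.35, limma adjusted p = 0.000643) and below aspen by a difference of -5.83 and pine by -5.71.

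The gene lists are read against the 2.07% higher, the 1.54% lower and the median of -0.09 over all tested genes. Counts against a single medium, here and in the lists below, are read against the shares of all tested genes for that medium. These were 0.962% higher and 0.707% lower against glucose, 3.72% and 3.51% against aspen, and 4.47% and 4.56% against pine. Of 28 cellulases and wall-loosening proteins, 2 were called higher against the mean and none lower (median -0.12), and of 11 hemicellulases, 1 was called higher and none lower (median 0.63). The hemicellulase median was 0.01 and its count 0 without Avicel culture 3, against a count of 3 without Avicel culture 1. The cellulase median was 0.15 and its count 4 without Avicel culture 1, and that count was 0 without Avicel culture 2 and 1 without Avicel culture 3. The 3 called genes were the GH12 protein 24190, the GH5 protein 141870 and the GH10 protein 110801, whose values stand with the spread of the Avicel cultures. Against glucose alone, 2 of the 28 and 3 of the 11 were called higher, where the first count was 5 without Avicel culture 1 and 1 without Avicel or glucose culture 2, and the second was 0 without Avicel culture 3 or glucose culture 1 or 3 and 1 without glucose culture 2. The most abundant cellulase-list transcript was the barwin-related endoglucanase 156377, at 19261, 16221 and 17714 RPKM on Avicel, against 13233 to 22332 on glucose, 4607 to 9824 on aspen and 6978 to 9443 on pine. It overlapped with glucose and did not pass the test against the mean. None of 9 beta-glucosidases, which split short cello-oligosaccharides to glucose, was called against the mean (median -0.42, and -0.15 without Avicel culture 1). Against glucose none was called (median 0.48, with -0.18 over all tested genes), and 2 were called higher without Avicel culture 1. None was called against aspen (median -0.49), and 4 were called lower against pine (median -0.93). None of 24 enzymes acting on fungal walls was called against the mean (median -0.06, and 0.05 after median centring), while 5 were higher than on glucose (3 without glucose culture 3), 3 lower than on aspen and 2 lower than on pine (0 without Avicel culture 3 or pine culture 2, 1 without Avicel culture 1 or 2). The chitinase-family gene 146767 was higher than on glucose and lower than on aspen, at 1313, 1074 and 1244 RPKM on Avicel, against 78.8 to 179 on glucose, 2544 to 2914 on aspen and 1833 to 2396 on pine.

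Pectin-acting enzymes had 3 of 15 called lower against the mean and none higher (median -0.31), and 7 of 15 lower than on pine. The GH28 protein 128405, of the polygalacturonase family, stood at 7.46, 8.92 and 10.9 RPKM on Avicel, against 1.78 to 3.29 on glucose, 43.9 to 119.8 on aspen and 81.0 to 226 on pine. The pectinesterase 165643, which removes methyl groups from pectin, stood at 2.81, 3.57 and 3.32 RPKM on Avicel, against 0.708 to 1.27 on glucose, 11.1 to 23.7 on aspen and 26.041 to 56.1 on pine. In both, Avicel lay apart from wood and above glucose without passing the test against glucose (limma adjusted p = 0.0651 and 0.0612), and the differences from the mean were -1.65 and -1.34. The third, 125762, lost its call without any 1 of the Avicel cultures (highest adjusted p = 0.0844).

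Part of the sugar transporters was lower on Avicel than on wood and part higher than on glucose. Of 26 sugar transporters, 5 were lower and 1 was higher against the mean (median -0.44), with 5 higher and none lower than on glucose, 8 lower and none higher than on aspen, and 10 lower and 1 higher than on pine. The count above glucose was 2 without glucose culture 2, and 3 without Avicel culture 1 or 2, glucose culture 1 or 3, or aspen culture 3. Transporter 102298 stood at 41.6, 62.4 and 49.7 RPKM on Avicel, against 5.40, 4.95 and 4.53 on glucose, 774, 1085 and 645 on aspen and 1175, 1684 and 1055 on pine. Avicel overlapped none of the other media, while aspen and pine overlapped each other, and the differences were 3.12 from glucose, -3.99 from aspen and -4.63 from pine (limma adjusted p = 6.01e-05, 2.03e-06 and 4.68e-07). Transporter 17021 showed no such step from glucose, at 11.9, 13.2 and 12.8 RPKM on Avicel, 9.95 to 16.04 on glucose, 58.1 to 65.3 on aspen and 54.8 to 83.4 on pine. The 1 higher transporter, 164773, stood at 17.6, 38.3 and 28.97 RPKM on Avicel and 8.44 to 24.1 elsewhere, and lost its call in 7 of 12 cases of leaving out a library, among them Avicel culture 2 or 3 (highest adjusted p = 0.144). Of 108 other major facilitator proteins, a large family of small-molecule transporters, 10 were lower and 2 higher (median -0.26), with 7 lower and 3 higher after median centring and 16 lower without Avicel culture 2. Of 45 peptide and amino acid transporters 4 were lower and 1 was higher (median -0.18), and without Avicel culture 1 or 3 the 4 became 2.

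Of 11 iron and copper proteins tested, 4 were called lower against the mean and none higher (median -0.47, and -0.78 without aspen culture 3), 5 were lower than on aspen (median -1.73), 6 lower than on pine (median -1.03) and none differed from glucose by the call (median -0.14). The 4 were the multicopper oxidases 157228 and 165246, the ferric reductase 140747 and the iron permease 139155. In the yeast Saccharomyces cerevisiae a ferric reductase, a multicopper oxidase and an iron permease take up iron together. The label of 157228 and 165246 does not say whether they have that role. The reductase stood at 10.4, 9.73 and 7.78 RPKM on Avicel, against 11.4, 9.77 and 14.5 on glucose, 40.0, 44.1 and 40.1 on aspen and 25.6, 40.7 and 28.9 on pine. It overlapped with glucose only, with a difference of -1.34 from the mean (SE 0.15, limma adjusted p = 0.000519). The permease stood at 6.79, 24.7 and 14.0 RPKM on Avicel, against 12.5 to 14.5 on glucose, 57.7 to 97.01 on aspen and 40.4 to 83.8 on pine, a difference of -1.47 (limma adjusted p = 0.0128; 0.0579 without Avicel culture 3). Both comparisons with wood also cross the lanes. The Avicel cultures were not even over this list. The summed level of the 11 was 272, 356 and 665 RPKM in Avicel cultures 1, 2 and 3. On glucose it was 229 to 300, on aspen 778 to 1803 and on pine 603 to 1354. A range of at least 2 was found in 3 of the 11 on Avicel, 0 on glucose, 1 on aspen and 2 on pine. Of all tested genes 1.65% had that range on Avicel.

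Of 228 peptidases, 11 were called higher and 2 lower against the mean (median -0.09), after median centring 12 and none (median 0.02), and the higher count was 19 without Avicel culture 1 and 7 without Avicel culture 3, while the lower count was 1 without Avicel culture 3 or pine culture 2. The median equals that of all tested genes. Without a fold threshold 17 of the 228 were higher and 17 lower, against 361 and 839 of the 10184 tested genes. The calls describe single genes, and whether the list as a whole differs was not tested. Aspartic peptidases made up 5 of these calls, 4 of 41 higher (2 without Avicel culture 3) and 1 lower. One of them, 22529, of the pepsin family, stood at 637, 683 and 1117 RPKM on Avicel, against 1079, 567 and 904 on glucose, 104, 74.4 and 47.2 on aspen and 28.1, 24.4 and 14.955 on pine. It overlapped with glucose and exceeded every wood culture, with a difference of 2.83 from the mean (SE 0.28, limma adjusted p = 0.000254). The peptidase 28272 of the serine family S28 had the same order, at 156, 115.1 and 214 RPKM on Avicel, against 134 to 180.3 on glucose, 28.1 to 39.7 on aspen and 15.1 to 20.9 on pine (1.79, limma adjusted p = 0.000281). Sedolisins, acid peptidases of family S53, differed in that 2 of the 11 belonged to them and stood above all other libraries. The sedolisin 122691 was at 76.3, 65.5 and 179 RPKM on Avicel and 19.7 to 52.7 elsewhere (1.74, limma adjusted p = 0.00461). The sedolisin 29615 was at 3316, 3738 and 3900 RPKM on Avicel and 870.1 to 3208 elsewhere (1.09, limma adjusted p = 0.0288), and lost its call without Avicel culture 2 or 3 or pine culture 3 (highest adjusted p = 0.123). Of 23 sedolisins tested, a list added after the values were seen, 2 were called higher, 7 without Avicel culture 1 and 1 without Avicel culture 2 or 3 or pine culture 3.

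Caspase-like peptidases of family C14, which in fungi are known as metacaspases and have been tied to programmed cell death in yeast, supplied 4 of the 11. Genes 166137, 27735 and 27737 lie together on scaffold 11 between positions 1049014 and 1064794. The first stood at 121, 275 and 222 RPKM on Avicel, against 126, 102 and 195 on glucose, 13.1, 10.6 and 24.8 on aspen and 17.1, 5.61 and 41.6 on pine. The second stood at 111, 326 and 366 RPKM on Avicel, against 121 to 164 on glucose, 35.8 to 72.5 on aspen and 34.3 to 41.8 on pine. In both, Avicel culture 1 was the lowest of its medium and within or below the glucose range, and the differences from the mean were 2.54 and 1.83 (limma adjusted p = 0.00739 and 0.00539). The third, 27737, was at 193 to 314 RPKM on Avicel and 336 to 503 on glucose and lost its call in 5 of 12 cases (highest adjusted p = 0.163), as did the fourth, 83448, on scaffold 17 (0.159), both among others without Avicel culture 2 or 3.

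Cytochromes P450, a large family in wood-decay fungi, were called in both directions. Of 181, 6 were higher and 8 lower against the mean (median -0.08), and after median centring 8 and 7, with a median of 0.03. The higher count was 2 without Avicel culture 3 and 10 without pine culture 3. Apart from 104807, the 5 higher ones each lost their call in 1 case, 143828, 138804, 155285 and 129377 without Avicel culture 3 and 102645 without Avicel culture 1. Among the lower ones, 167294 was below every other library, at 44.5, 67.3 and 46.2 RPKM on Avicel, against 95.2 to 178 on glucose, 78.5 to 96.6 on aspen and 175 to 403 on pine (-1.41, limma adjusted p = 0.00569). Models 75851 and 90431 follow each other on scaffold 7, between positions 1232403 and 1234356, and gave near-parallel values. They stood at 1.26 to 5.22 and 3.76 to 5.63 RPKM on Avicel, at 1.11 to 2.00 and 1.61 to 2.35 on glucose, and at 33.0 to 239 and 35.7 to 231 on wood, so whether they count as 1 gene or a pair of genes is not known here.

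Genes of the glyoxylate cycle and gluconeogenesis numbered 11, with 2 higher and none lower (median 0.34). Besides 23619, the second isocitrate lyase-labelled model 92053 (scaffold 15, positions 9480 to 10803) was called. It stood at 1890, 1471 and 2785 RPKM on Avicel, against 2520, 672 and 892 on glucose, 281, 129.6 and 255 on aspen and 223, 12.4 and 337 on pine. It overlapped with glucose, and its difference of 2.77 (SE 0.79, limma adjusted p = 0.0425) was lost in 8 of 12 cases, which include each of the 3 Avicel cultures (highest adjusted p = 0.18). The cytochrome b5 28650 lies beside it at positions 12239 to 15687. Malate synthase 108206, the other enzyme specific to the glyoxylate cycle, stood at 21.1, 32.2 and 32.3 RPKM on Avicel and 13.8 to 27.2 elsewhere and was not called (0.43, limma adjusted p = 0.18).

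The remaining lists had few calls. Heat shock proteins had 2 of 49 higher (median 0.14, and -0.01 without Avicel culture 1), both of the small Hsp20 family. Gene 29156 stood at 101, 213 and 344 RPKM on Avicel and 49.7 to 121 elsewhere, and 135450 at 288, 82.3 and 129 on Avicel and 46.3 to 108 elsewhere. Both lost their call in some cases of leaving out a library, among them Avicel culture 3 (highest adjusted p = 0.101). Transcription factors had 1 of 185 higher and 2 lower (median -0.04, and 0.06 after median centring), with 5 higher without Avicel culture 1, none lower without Avicel culture 3 and 1 lower without pine culture 3. The higher one, the zinc cluster regulator 90423, was above every other library at 50.3, 44.4 and 43.8 RPKM on Avicel, against 24.998 to 39.0 on glucose, 5.18 to 11.9 on aspen and 2.31 to 10.2 on pine (1.84, limma adjusted p = 0.00783). Ricin B lectins had 1 of 11 higher and 1 lower, protein kinases 1 of 215 higher and 2 lower, and glutathione S-transferases 1 of 26 higher. Both ricin B calls were lost without Avicel culture 3 (highest adjusted p = 0.0678), and the higher kinase without Avicel culture 2 or 3 (highest adjusted p = 0.108), while 2 kinases were higher without Avicel culture 1. Among 13 GMC and other oxidases that form hydrogen peroxide (median -0.28), and among 117 ribosomal proteins (median 0.19, and 0.02 without Avicel culture 1), no gene was called. The single alternative oxidase 131215, which bypasses part of the respiratory chain, stood at 82.3, 100.4 and 237 RPKM on Avicel and 14.7 to 98.2 elsewhere (1.83, limma adjusted p = 0.0285), and lost its call without Avicel culture 2 or 3 (highest adjusted p = 0.168).

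**Figure D2:**
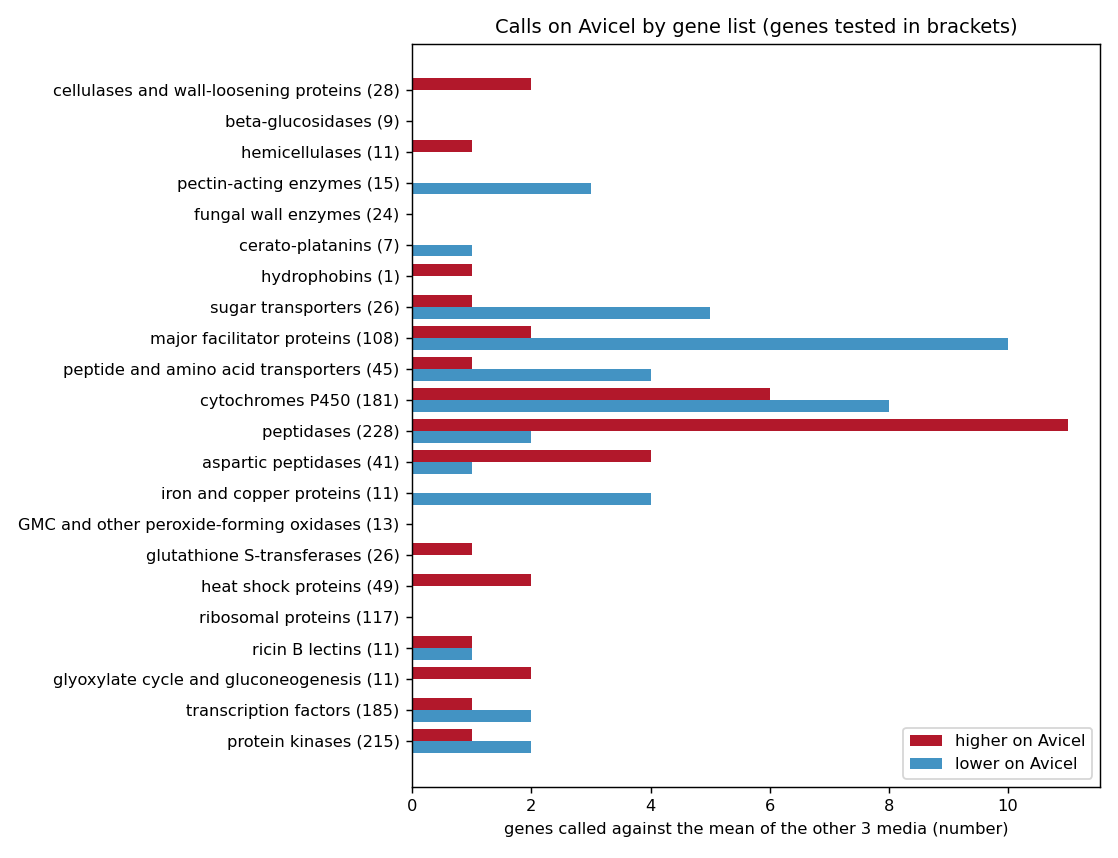
Number of genes called higher (red) and lower (blue) on Avicel against the mean of the other 3 media in each gene list, with the number tested in brackets. Peptidases hold the most higher calls, 11 of 228, and major facilitator proteins the most lower calls, 10 of 108.

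The 3 Avicel cultures differed among themselves more than the glucose or aspen cultures did, and about as much as the pine cultures. The range of log2(RPKM + 1) over the 3 cultures reached 2, a 4-fold span, in 168 genes on Avicel (1.65% of those tested), against 41 on glucose (0.403%), 76 on aspen (0.746%) and 190.0 on pine (1.87%). Among genes with a mean of at least 10 RPKM the counts were 136 on Avicel, 28 on glucose, 47 on aspen and 144 on pine. The median range over all tested genes was 0.44 on Avicel, 0.34 on glucose, 0.34 on aspen and 0.38 on pine. Across genes, which are not independent replicates, the Avicel libraries correlated at r = 0.961 to 0.974, glucose at 0.98 to 0.984, aspen at 0.977 to 0.985 and pine at 0.959 to 0.979. Each of the 168 genes was assigned to the culture that lay farther from the other 2. By this rule culture 1 was set apart below in 61 (36.3%) and culture 3 above in 47 (28%). The other 60 were divided over the remaining 4 cases. A gene assigned to another case can still have culture 1 lowest or culture 3 highest. With 2 cultures left, the count was 51 without Avicel culture 1, 103 without culture 2 and 72 without culture 3. A signal peptide was given at a probability of at least 0.5 for 38 of the 136 genes with at least 10 RPKM (27.9%), against 8.5% of all genes at that level, with 14.3% in glucose, 25.5% in aspen and 18.8% in pine for the genes of the same range there. Culture 3 was also the shallowest Avicel library, and the part of depth in this spread was not tested.

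**Figure D3:**
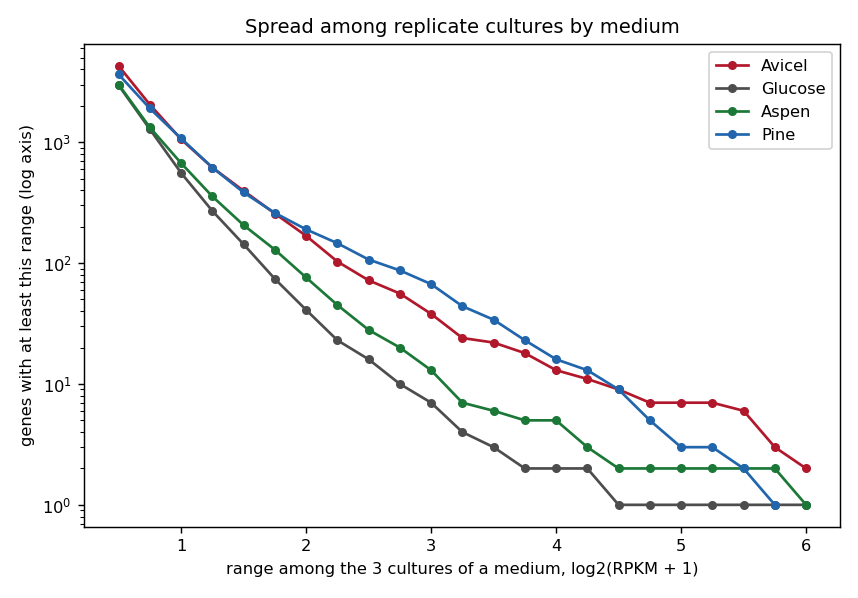
Number of tested genes (log axis) whose range of log2(RPKM + 1) over the 3 cultures of a medium was at least the value on the x axis, with a line each for Avicel, glucose, aspen and pine. At a range of 2 the lines stand at 168 for Avicel, 41 for glucose, 76 for aspen and 190.0 for pine.

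**Figure D4:**
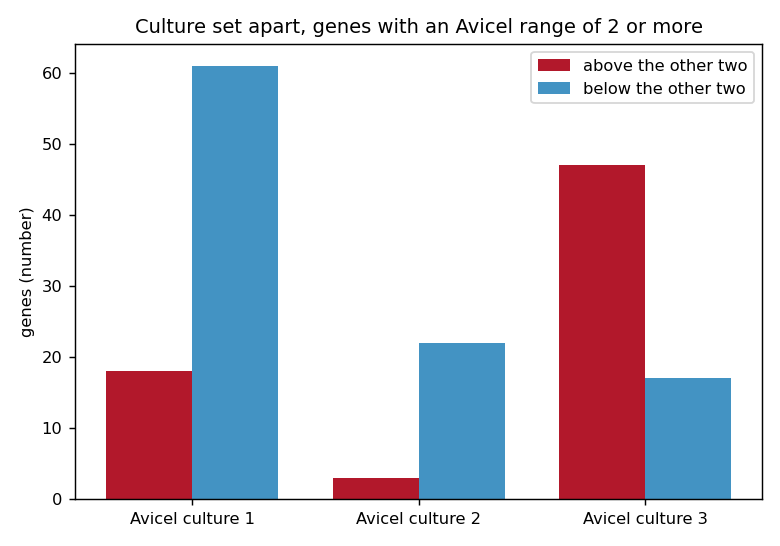
For the 168 genes with an Avicel range of at least 2, the number in which each Avicel culture was the one set apart, above (red) or below (blue) the other two. The culture set apart is that farther from the other 2, so each gene is counted in a single bar. Culture 1 was set apart below in 61 and culture 3 above in 47.

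Plant wall enzymes were a visible part of this spread. Of 39 cellulase-list and hemicellulase-list genes tested, 10 (25.6%) had an Avicel range of at least 2, against 0 on glucose, 0 on aspen and 4 on pine. In 10 of the 10, culture 1 was the lowest and culture 3 the highest Avicel culture, while over all 39 culture 1 was lowest in 23 and culture 3 highest in 20. Their summed level was 341, 3318 and 6874 RPKM in Avicel cultures 1, 2 and 3, against 336 to 686 in glucose, 730.0 to 2002 in aspen and 773 to 2217 in pine. Avicel culture 1 thus lay within the range of the glucose cultures, and cultures 2 and 3 above all 9 others in this sum. Gene by gene, cultures 2 and 3 were above every glucose culture in 10 of the 10, above every aspen culture in 6 and above every pine culture in 4, while culture 1 was below every glucose culture in 4. These 10 were picked by their range, so the order of the cultures in them and their place against the other media are descriptions. The share of all tested genes with Avicel cultures 2 and 3 above every culture of another medium was not counted, so the counts gene by gene have no background.

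The widest span among them was that of GH10 110801 (scaffold 25, positions 207752 to 209279, plus strand), at 6.93, 209 and 402 RPKM on Avicel, against 2.92 to 3.54 on glucose, 1.49 to 5.04 on aspen and 0.903 to 4.40 on pine. All 3 Avicel cultures exceeded the other 9, culture 1 by little and cultures 2 and 3 by far, a range of 5.67 or 58.0-fold. Its difference of 4.50 from the mean (SE 0.89, limma adjusted p = 0.00986; 0.064 without Avicel culture 3) missed the call against glucose (4.39, adjusted p = 0.053). GH12 24190, an endoglucanase family, stood at 38.5, 537 and 1809 RPKM on Avicel, against 229, 309 and 117 on glucose, 6.33, 11.7 and 6.30 on aspen and 30.3, 12.9 and 9.04 on pine. Culture 1 was below every glucose culture and cultures 2 and 3 above, and the call against the mean (3.46, limma adjusted p = 0.0246) was lost without Avicel culture 2 or 3 (highest adjusted p = 0.14). GH5 141870 stood at 95.8, 1247 and 2397 RPKM on Avicel, against 169.99, 221 and 104 on glucose, 7.31 to 26.01 on aspen and 11.3 to 60.03 on pine. It had the same order of cultures, and its call (3.97, limma adjusted p = 0.011) was lost without Avicel culture 2 or 3 (highest adjusted p = 0.0756). Next to it on scaffold 1, on the other strand, lies another GH5 gene, 112799, at 5.29, 17.002 and 70.7 RPKM on Avicel and 4.71 to 19.03 elsewhere. GH10 164484 stood at 132, 1026 and 1701 RPKM on Avicel, against 25.2 to 36.4 on glucose, 479 to 1481 on aspen and 434 to 1510 on pine, so that culture 1 lay between glucose and wood. The other 5 of the 10 had ranges of 2.11 to 3.45, and none of them was called against the mean.

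**Figure D5:**
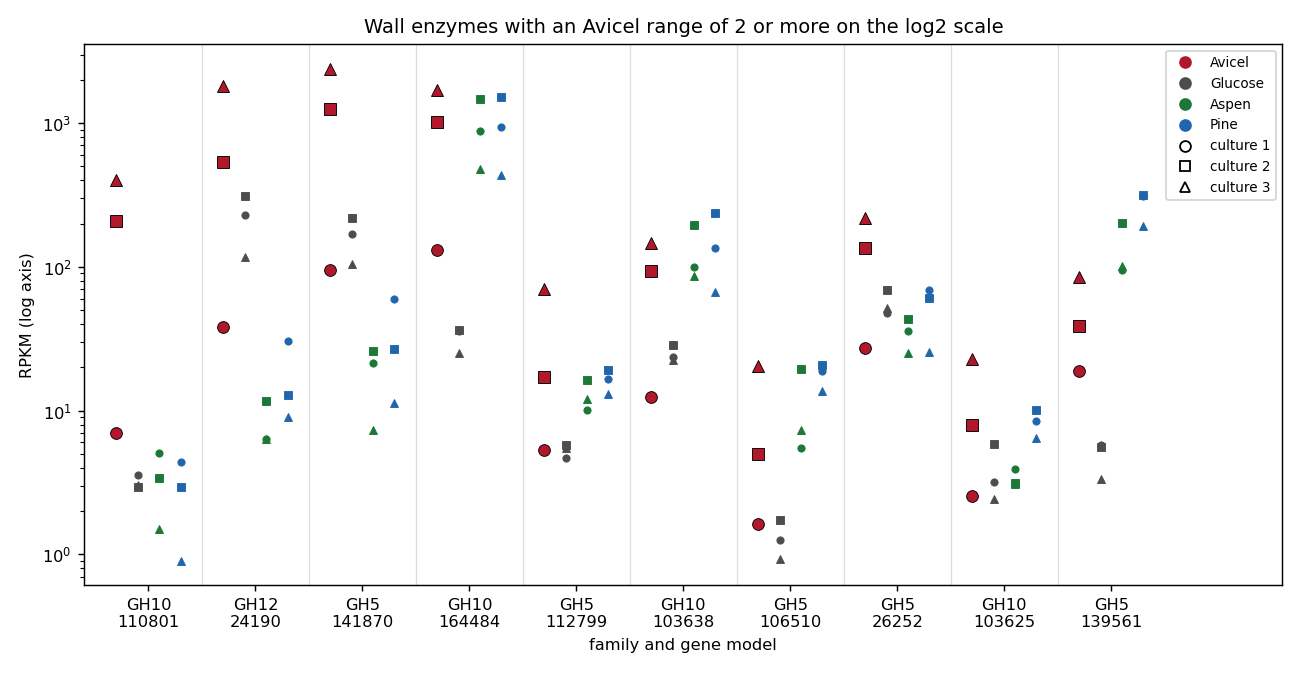
RPKM (log axis) of the 10 cellulase-list and hemicellulase-list genes with an Avicel range of at least 2, with a symbol for each culture of Avicel, glucose, aspen and pine. In every column the red circle of Avicel culture 1 is the lowest and the red triangle of culture 3 the highest of the Avicel symbols. The glucose cultures have ranges of 0.21 to 1.4 in log2(RPKM + 1).

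Other genes spread in the same order. The GPR1/FUN34/yaaH protein 99308, of a membrane protein family linked to acetate uptake in Saccharomyces cerevisiae, stood at 7.74, 74.1 and 703 RPKM on Avicel, against 6.19 to 10.2 on glucose, 20.1 to 42.9 on aspen and 26.5 to 38.2 on pine. Culture 1 lay in the glucose range and culture 3 far above all others, a span of 90.9-fold. The difference of 1.85 from the mean did not pass (limma adjusted p = 0.194) and became 3.42 without Avicel culture 1 (adjusted p = 0.00669). The other gene of that label, 134850, was lower on Avicel than on wood without such a spread, at 184, 151 and 230.4 RPKM on Avicel, against 112 to 155 on glucose, 445 to 577 on aspen and 775 to 936 on pine. Its difference of -1 from the mean (limma adjusted p = 0.00275) was at the edge of the fold threshold and lost the call in 5 of 12 cases, Avicel cultures 1 and 2 among them, with a smallest size of 0.85, and also after median centring. The hydrophobin 141043, of the small surface-active proteins that coat aerial hyphae, stood at 1.26, 5.59 and 46.1 RPKM on Avicel, against 2.11 to 2.57 on glucose, 0.409 to 0.597 on aspen and 0.091 to 0.411 on pine. Its call of 2.26 (limma adjusted p = 0.0392) was lost in 10 of 12 cases of leaving out a library, Avicel cultures 2 and 3 included (highest adjusted p = 0.0855). Of the unlabelled genes, 145870 stood at 19.6, 428 and 1908 RPKM on Avicel and 20.3 to 449 elsewhere, and 46155 at 5.01, 27.3 and 271 on Avicel and 2.66 to 7.71 elsewhere. Neither was called against the mean (limma adjusted p of the second = 0.0505), and without Avicel culture 1 the second had a difference of 3.93 (adjusted p = 0.00334).

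Some of the spread lay between overlapping models. The NLI interacting factor 137426 was at 55.5, 0 and 59.8 RPKM on Avicel, where the second culture is listed at 0, and 5 of the 12 libraries were listed at 0. It shares positions 2587527 to 2590678 of scaffold 4 with the Snf7 model 163147 on the other strand, which stood at 55.4, 114.7 and 59.6 RPKM. The sum of both was 111, 114.7 and 119 RPKM on Avicel and 104 to 135 over the 12 libraries, with an Avicel range of 0.11. The unlabelled pair 136278 and 136273 on scaffold 2, also on opposite strands, had Avicel ranges of 5.59 and 4.68 singly and 0.91 in their sum. Of the 168 genes, 44 (26.2%) overlap another model, against 24.2% of all tested genes. The strand rule of the counting is not stated in the sources at hand.

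Ribosomal proteins stood in another order of cultures, with a median Avicel range of 0.67, against 0.44 for all tested genes on Avicel and 0.28 for ribosomal proteins on glucose. Of 117, 111 (94.9%) were highest in Avicel culture 1 and 81 (69.2%) lowest in culture 3, against 37.0% and 49.9% of all tested genes. Their summed level was 60804, 42408 and 38246 RPKM on Avicel, against 46443 to 51594 on glucose, 34631 to 41595 on aspen and 27867 to 39010 on pine. Culture 1 was thus above every other library in this sum, and cultures 2 and 3 were below every glucose library. Of 11 hemicellulases 81.8% were lowest in culture 1 and 81.8% highest in culture 3, and of 9 beta-glucosidases 66.7% were lowest in culture 1 and 77.8% highest in culture 3, against 3052 and 2359 of the 10184 tested genes.

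The Avicel transcript pool was more concentrated. The 10 most abundant models of a library took 16.42%, 12.28% and 18.27% of all RPKM on Avicel, against 9.16% to 14.94% in the other 9 libraries. Avicel culture 2 lay within the others. The means were 15.65% ± 3.07 (SD, n = 3) on Avicel and 11.45% ± 1.87 (SD, n = 9) elsewhere, a difference of 4.21 percentage points (two-sided exact permutation test over the 12 libraries, p = 0.0364, with 0.0045 the smallest p this design allows). Without Avicel culture 1 the difference was 3.83 and without culture 3 it was 2.9, and neither passed 0.05. Pooled in the top 100 models were 34.01% ± 3.19 on Avicel (SD, n = 3) and 29.9% ± 1.61 elsewhere (SD, n = 9; two-sided exact permutation p = 0.0273). The leading model, the unlabelled 75032, stood at 31778, 17775 and 44017 RPKM on Avicel, against 8808 to 29821 on glucose, 616 to 2473 on aspen and 235 to 1846 on pine.

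Protein scores from mass spectrometry, 1 value a medium without replicates, cover 704 models. A protein was detected on Avicel for 252 of them, on glucose for 436, on aspen for 580.0 and on pine for 513. The deposited emPAI score, which grows with the number of peptides seen, was highest on Avicel in 90 of the 704 (12.8%). Among the genes called higher against the mean, 25 had a protein row and 11 of these (44%) had their highest score on Avicel, against 1 of 12 (8.3%) among the lower genes. The GH12 protein 24190 scored 34.62 on Avicel, 15.50 on glucose, 10.25 on aspen and 8.98 on pine. The peptidase 22529 scored 12.08 on Avicel and 11.95 on glucose, against 0.74 on aspen and 0.85 on pine. The isocitrate lyase family protein 23619 did not follow its transcript, with 0.28 on Avicel, 0.64 on glucose, 0.48 on aspen and 0.27 on pine, and GH5 141870 scored 1.77 on Avicel, 4.45 on glucose and 1.52 on both woods.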

How the data were processed

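RNA of 12 Wolfiporia cocos cultures was sequenced as single reads of 100 nt, from poly-T selected mRNA of 1 µg total RNA, per the labels' protocols, and the submitters' processing notes list CASAVA 1.8.2. No source used here gives the aligner, the read counter, the build or the strand rule. The expression values deposited by the authors were read as RPKM. That unit stands in no header and rests on how the values behave. The authors also deposited p-values for their own comparisons, the probability of a signal peptide (a fraction, 0 to 1), and emPAI scores with peptide numbers, 1 value a medium. How those scores were computed is not stated. The authors' group means and ratios were not used. No sequence is printed, and coordinates are those of the deposited table.

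Columns were assigned to cultures by name, and none was left unmapped. The tested models averaged 1 RPKM or more on some medium. One limma 3.58.1 fit (R 4.3.3) of log2(RPKM + 1) took in the 12 libraries as 4 media, with a mean-variance trend. The fit had 8 residual and 3.6 prior degrees of freedom. Such differences understate the change of low genes. Of the tests planned for different units, that for linear normalized values was used. The fit was tested on simulated data with 200 changed genes. The simulated spread of a gene was the same on all 4 media, so that test cannot show how the fit behaves where Avicel cultures spread more. Depth came from the step that 1 read makes in low values: 378 models showed a common step and 110 gave a common depth. In 3 libraries 99.6% or more of the counts were even at the depth shared with the rest, against at most 50.7% elsewhere, and their depth was halved to 9.8 to 11.7 units of 1e6 reads. Averaged over models, the squared difference between replicates was at least 39.3 times the variance from counting, so none was the same library read again. This check cannot tell separate cultures from separate library preparations of 1 culture. The labels name triplicate cultures and say no more of their origin, so p-values set a difference against the spread between these cultures only. That spread was pooled over the 4 media, although Avicel cultures spread more than glucose or aspen cultures. With each contrast fitted on its own 2 media, 8 genes were highest on Avicel, 6 of them among the 8 of the main fit.

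Genes named are all of the sets called against each medium. From the calls against the mean come the 4 labelled genes with the largest change in each direction, and from the spread the 6 labelled and 3 unlabelled genes with the largest Avicel range at a mean of at least 10 RPKM. Other named genes are members of lists, defined by words in InterPro labels, or were chosen after their values were seen. Members and lists were chosen with earlier results of these data known, and 6 lists were added after the values were seen. Same-numbered cultures were checked for pairing: the 18 correlations of their deviations ran from -0.418 to 0.437, 7 of them over 0.1. They gave no uniform sign of pairing, but with 3 cultures a medium this check cannot exclude it. Alternatives were other pseudocounts, filters, normalizations, weights and thresholds, and leaving out libraries.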

Additional observations from a re-analysis of the deposited data

How the results depend on the processing

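The 368 genes called against the mean (211 higher, 157 lower) became 242 (lower 98) with a pseudocount of 5, 1200 (361 higher, 839 lower) without a fold threshold, 65 (41 and 24) at a fold of 4 and 172 (77 and 95) without the 3 shallowest libraries, an alternative chosen after seeing the data. Leaving out 1 library gave 209 to 497 calls, 98 to 305 higher and 111 to 192 lower. The 8 genes highest on Avicel became 2 at a fold of 4, 63 by order alone, 126 by order after median centring, and 5 to 36 with 1 library left out. The 1 lowest gene became 3 with a pseudocount of 0.1, 14 without a fold threshold, 0 at a fold of 4 and 0 without the shallowest libraries, 455 by order, 161 by order after centring, and 0 to 6 with 1 library left out. The share difference of the top 10 models ran from 2.9 to 5.9 points, and the 168 genes with a range of 2 became 81 with a pseudocount of 5 and 51 to 103 with 2 Avicel cultures left. With a replicate block, although pairing by number was not established, 398 genes were called (239 and 159), 11 highest and 1 lowest. Over 23 named genes, 468 of 506 values kept direction and call, 23 lost the call and 6 gained it. The 9 that changed sign belonged to genes not called: 137426 at -0.75 with array weights, -0.37 without the shallowest libraries and -0.38 to 2.59 with 1 library left out, 145870 at -0.67 without the shallowest libraries and -0.68 to 2.58 with 1 left out, and 136278 at -1.83 to 0.97 with 1 left out. The cause of these changes was not tested. Depth limits values near the floor of 0.13 to 0.31 RPKM.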
